A study of Homo sapiens with 10 samples.

Results

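The 10 RNA sequencing samples of edited lymphoma cell clones fell into 2 sets that cut across the edit they carried. Set 1 held wild-type (wt) replicates 1 and 4 and R475C replicates 1 and 3, and set 2 held wt replicates 2, 3, 5 and 6 and R475C replicates 2 and 4. The sets had been recognised from the expression of all genes in these samples. Any difference between them is therefore described here with its size and spread, and no p-value is given for it.

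All samples came from 1 human line, labelled U2392. They had been nucleofected with a Cas9 and guide plasmid and a double-stranded DDX3X template, then sorted and cloned from single cells. R475C samples carried the R475C change in DDX3X, an RNA helicase gene on the X chromosome. The wt samples carried the unchanged codon, and both templates added silent changes at the PAM and a SpeI site. Whether 2 replicates of a genotype stem from different clones or from 1 clone is not in the labels. Every p-value given for the interaction between genotype and set thus measures no more than sample-to-sample spread, part of which may be technical. A diffuse large B-cell lymphoma line of similar name, U-2932, is known for holding genetically distinct subclones within 1 culture, told apart by surface CD20 and CD38 and by the oncogenes BCL6 and MYC.

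Differences between clones of one cancer line are commonly of the following kinds. Gain or loss of a chromosome segment moves the expression of most genes in it by a similar factor, whereas heritable silencing at a promoter, often with methylation of CpG dinucleotides, takes single genes from on to off. Expression shows the sum of both and does not measure DNA copies or methylation.

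Counts per sample ran from 8928539, in R475C replicate 4, to 53779005, with a mitochondrial share of 3.98% to 5.62%. The B-cell genes MS4A1, CD79A, CD79B, CD22 and PAX5 were expressed in every sample. Of the 10 T and NK cell markers, 7 stayed under 1 CPM, the number of counts scaled to a library of fixed size, in every sample, and all 10 myeloid markers did. DDX3X was at 553 and 357 CPM in the wt samples of set 1 and at 363 to 436 CPM in those of set 2. It was at 983 and 1046 CPM in the R475C samples of set 1 and at 945 and 749.7 CPM in those of set 2, so its level went with genotype and not with set. The count does not distinguish the edited codon and does not check the edit.

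The first principal component of log2 CPM held 31.2% of the variance and was negative in all 4 samples of set 1, at -72.6 to -43.6, and positive in all 6 of set 2, at 13.2 to 59.2. Every sample had a higher mean correlation with the other samples of its set than with those of the other set. Within sets the samples lay closest in pairs, wt 1 with wt 4, wt 2 with wt 6, wt 3 with wt 5 and R475C 1 with R475C 3. R475C 4, the shallowest library, stood apart on the second component at 100.8. R475C 2 lay nearest to set 1 of all set 2 samples, and its correlation with wt 1, at 0.962, was as high as its correlation with R475C 4, at 0.960.

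**Figure D1:**
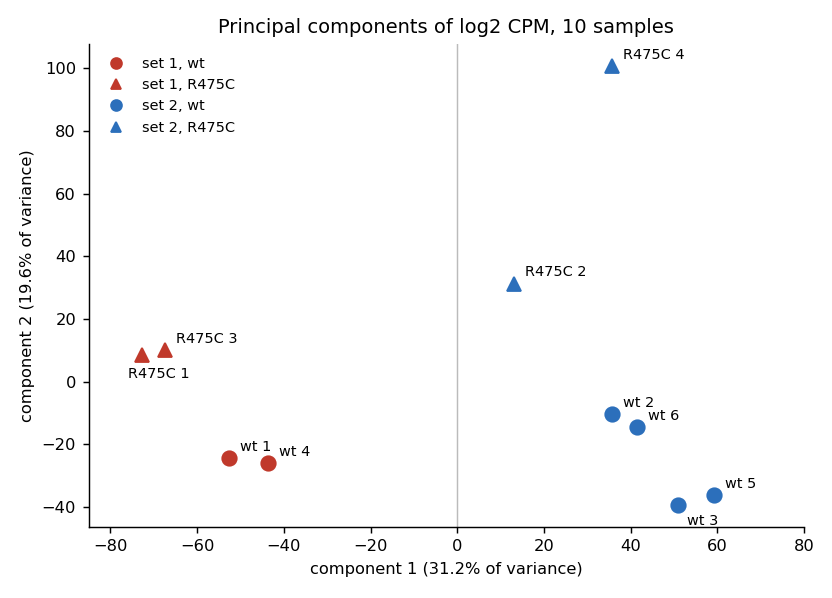
First 2 principal components of log2 CPM in the 10 samples, with set in colour and genotype as marker shape. Set 1 lies at negative and set 2 at positive values of component 1, and R475C 4 stands apart on component 2.

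A gene was called shifted where the fitted difference between the sets, with genotype as covariate, was at least 2-fold and where the sets did not overlap within wt and did not overlap within R475C. Of 18358 genes measured, 950 were shifted (5.17%), 490 of them higher in set 1 (2.67%) and 460 lower (2.51%). The same rule applied to genotype, with set as covariate, gave 454 genes (2.47%). Without a fold limit, 3144 genes (17.1%) did not overlap between the sets. Since the sets were chosen from these values, the percentages describe the choice and support nothing. Leaving out wt 4 raised the count of lower genes more than leaving out any other single sample did. It leaves 1 wt sample in set 1, and with fewer samples the rule of no overlap is easier to meet.

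Part of the difference was positional. Segments were sought among protein-coding genes averaging 5 CPM or more, and the numbers of genes along chromosomes given here count these. On chromosome 10, 278 consecutive genes from HNRNPF to SPRN (chr10:43385617-133424572, GRCh38) had a median set difference of 0.97 on the log2 scale, or 1.95-fold higher in set 1. Of these genes, 257 were higher in set 1 without overlap and 1 was lower, and 123 passed the 2-fold limit. Relative to the mean of set 2, the median gene stood at 1.97-fold in wt 1, 1.84-fold in wt 4, 1.94-fold in R475C 1 and 1.96-fold in R475C 3, against 0.958-fold to 1.04-fold in the 6 samples of set 2. The sets were far apart and each was tight. The remaining 88 such genes of the chromosome, all before the segment, had a median of 0.03.

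Across all 95 protein-coding genes of chromosome 21 with a mean of at least 5 CPM, from ENSG00000275464 to PRMT2 (chr21:5130871-46665124), the median was 0.61, or 1.52-fold. The samples of set 1 stood at 1.52-fold to 1.57-fold and those of set 2 at 0.955-fold to 1.03-fold. The running median over 31 genes was 0.94 at its highest, in the proximal part, and 0.50 at its lowest, in the distal part, so the shift was not even along the chromosome. On chromosome 3, 177 genes from MYH15 to LRRC34 (chr3:108380369-169812986) had a median of 0.54, or 1.45-fold, with set 1 at 1.39-fold to 1.53-fold and set 2 at 0.952-fold to 1.03-fold. The other 434 genes of chromosome 3 above the same limit had a median of -0.01. Medians were alike in both genotypes, at 0.97 in wt and 0.98 in R475C on chromosome 10, 0.59 and 0.67 on chromosome 21, and 0.54 and 0.55 on chromosome 3. DNA copy number was not measured.

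The segments hold genes with known roles in growth and in B cells. On chromosome 10, MKI67, the proliferation antigen Ki-67, was at 996, 500.1, 625 and 666 CPM in wt 1, wt 4, R475C 1 and R475C 3, and at 247 to 339 CPM, median 283, in set 2. RPS24, a protein of the small ribosomal subunit, was at 491 to 589 CPM in set 1 and 205 to 303 CPM in set 2. Neither overlapped between the sets. BLNK, the adaptor that links the B-cell receptor to phospholipase C, was at 186, 179.9, 194 and 198 CPM in set 1 and at 89.1 to 117 CPM, median 109.6, in set 2, a difference of 0.80 (standard error 0.08). PIK3AP1, an adaptor for PI3-kinase in B cells, was higher by 0.71, and NFKB2, the precursor of the NF-kB subunit p52, by 0.44. SCD, a fatty acid desaturase in the same segment, overlapped between the sets, with a difference of 0.33.

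On chromosome 21, SOD1, the cytosolic superoxide dismutase, was at 319 to 369 CPM in set 1 and 125 to 179 CPM in set 2. The chaperonin subunit CCT8 was at 390.0 to 519 CPM against 155 to 234 CPM. ITGB2, the beta chain of the leukocyte integrins, went against its segment, with 1.81, 4.83, 11.9 and 9.65 CPM in set 1 and 5.27 to 31.6 CPM, median 12.6, in set 2. Its sets overlapped when genotypes were pooled but not within either genotype. On chromosome 3, MME, which encodes the germinal centre antigen CD10, was at 212, 164, 176 and 233 CPM in set 1 and at 69.8 to 108 CPM, median 82.5, in set 2. CDV3 was at 1208 to 1439.9 CPM against 609.8 to 702 CPM. The costimulatory gene CD86 was higher by 0.51, and CD47, just before the segment, by 0.56. BCL6, farther along chromosome 3, lay outside the segment.

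A run of 28 genes on chromosome 5 (chr5:140698680-141651419) had a negative median of -0.55. It covers the clustered protocadherins, adhesion genes in which many first exons are spliced to shared last exons. The 22 measured PCDHG genes differed by -0.67 to -0.51, and since they share 3 prime exons, their counts can hold the same reads and are close to 1 quantity counted many times. TAF7, inside the run, differed by -0.05 and HDAC3 by -0.03. In set 2 the median of the run was uneven, at 0.855-fold to 0.858-fold in wt 2, wt 6 and R475C 2 and at 1.09-fold to 1.23-fold in wt 3, wt 5 and R475C 4, against 0.643-fold to 0.754-fold in set 1. The PCDHB genes, which have single exons of their own, were nearly off in set 1. All 7 measured ones were shifted lower (beside 2.51% of all genes). Their summed level was 0.399 to 2.23 CPM in set 1 and 13.1 to 15.2 CPM in set 2. Genes this low in set 1 can pass the filter on low counts through set 2 alone, which favours a lower call. The count of 7 is thus a description only.

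Inside the 4 segments 241 of 1028 measured genes were shifted (23.4%), 218 higher and 23 lower. Outside them 709 of 17330 were shifted (4.09%), 272 higher and 437 lower. The segments were drawn from these same set differences. A larger share inside them, mostly of 1 sign in each, therefore follows from how they were chosen. Leaving out wt 4, which eases the rule of no overlap, raised the count outside as well. The shifted protein-coding genes outside the segments lay on every chromosome with more than 1 such gene measured, at 2.43% of measured genes on chromosome 5 to 5.56% on chromosome 18. Of these 496 genes 82, or 16.5%, had a shifted next neighbour, compared with 7.4% of genes that were not shifted. Neighbours went the same way in 38 adjacent pairs and opposite ways in 5. Such pairs included the desaturases FADS1 and FADS2, the integrin gene ITGA4 with CERKL, and GPR65 with GALC, which encodes a lysosomal galactosylceramidase. Some of these pairs overlap, and whether strand was used in counting is not stated.

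The most compact of these groups lay on the short arm of chromosome 3 (chr3:87227271-88168729), where 4 neighbouring genes were low in set 1. CHMP2B, a subunit of the membrane-remodelling ESCRT-III complex, was at 88, 69.6, 74.4 and 71 CPM in set 1 and at 326 to 412 CPM, median 359, in set 2. CGGBP1, which encodes a protein binding CGG repeats, was at 280.5, 232, 226 and 261 CPM against 1034 to 1313 CPM, median 1147. ZNF654 was at 49.4 to 65.4 CPM against 304 to 359 CPM, and C3orf38 at 52.3 to 61.6 CPM against 347 to 428 CPM. The differences were -2.23, -2.22, -2.54 and -2.77, and their standard errors were 0.09 to 0.10. ZNF654 and CGGBP1 overlap in the annotation and may share reads. GBE1, the measured neighbour on one side, differed by -0.11 and overlapped between the sets. A search for runs of 5 genes with a median of at least 1 found no other block outside the segments. This search was added after the data had been seen.

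Single genes outside the segments were on in one set and close to off in the other. KDM5B, a histone H3 lysine 4 demethylase, was at 34.6, 42.1, 43.4 and 43.1 CPM in set 1 and at 0 to 1.02 CPM, median 0.259, in set 2, whereas its paralogue KDM5A differed by 0.07. BMP7, a secreted growth factor of the TGF-beta family, was at 133, 157, 148 and 144 CPM in set 1 and at 0.22 to 3.69 CPM, median 2.78, in set 2. CTDSPL, a phosphatase gene on the short arm of chromosome 3, was at 14.2, 17.2, 22.7 and 32.4 CPM against 0 to 0.529 CPM. IQGAP2, a scaffold of the actin skeleton, was at 22.8 to 27.1 CPM against 0.189 to 1.6 CPM. No sample of these 4 genes fell between the levels of the sets. Among shifted protein-coding genes outside the segments with a mean of at least 1 CPM over all samples, the other 8 of the 12 largest differences in this direction were in ZFP3, POGLUT3, ADGRE5, ZNF423, PTPRT, CTTNBP2, ATF7IP2 and CYRIA, at 4.24 to 5.45. ATF7IP2 was not off in all of set 2: it was at 8.50 and 6.04 CPM in R475C 2 and R475C 4, and at most 0.0588 CPM in the wt samples of that set. POGLUT3 was at 9.93 and 10.5 CPM in the wt samples of set 1. In R475C 1 and R475C 3 it was at only 0.879 and 1.06 CPM, beside 0 to 0.749 CPM in set 2.

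Off in set 1 were genes of varied function. SORD, sorbitol dehydrogenase, was at 0.234, 0.0798, 0.0517 and 0.241 CPM in set 1 and at 5.68 to 7.57 CPM, median 6.55, in set 2, an even level across both genotypes. MAB21L1, a developmental gene, was at 0 to 0.16 CPM against 5.89 to 11.6 CPM. GPR65, a proton-sensing receptor of lymphocytes, was at 0 to 0.263 CPM against 1.82 to 7.32 CPM. DCN, which encodes the matrix proteoglycan decorin, was at 0 to 0.146 CPM in set 1, at 7.29 to 14.9 CPM in the wt samples of set 2 and at 2.67 and 3.40 CPM in R475C 2 and R475C 4. LRRN3, a leucine-rich repeat membrane protein, was at 31.9 and 31.4 CPM in wt 2 and wt 6 but at 1 to 6.1 CPM in the other 4 samples of set 2. Under the same limits, the remaining 7 of the 12 lowest were C14orf132, ASZ1, PRKD1, DACT1, PRICKLE2, IGF1 and C2CD4D, at -6.23 to -3.97.

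DCN is also a fibroblast marker. Of the 9 fibroblast and stromal markers examined, COL1A2 had no count in any sample and COL3A1, PDGFRB and THY1 stayed under 1 CPM. The summed level of all 9 was 3.56 to 4.67 CPM in set 1 and 5.68 to 36.0 CPM in set 2, with the higher values in the wt samples, through DCN, LUM, COL1A1 and FN1. LUM, the neighbour of DCN, was at 0 in set 1 and in the R475C samples of set 2, and at 0.561 to 2.93 CPM in the wt samples of set 2. Whether a few cells of another type carry these transcripts was not tested. The epithelial gene EPCAM was at 26.8 to 37.2 CPM in set 1 and 16.4 to 26.6 CPM in set 2, while KRT5, KRT19 and the other keratins on the list did not pass the filter on low counts.

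With a limit of 1 CPM, 14 protein-coding genes outside the segments were above it in every sample of set 1 and below it in every sample of set 2, and 29 were the reverse. Promoter sequences were looked at beside these genes because CpG content bears on how a promoter can be silenced. Windows of the 250 bases before the start came from RefSeq (GRCh38.p14), and 10361 of the 13121 measured protein-coding genes had one. The 21 of the 29 genes off in set 1 with a window held a median of 4 CpG dinucleotides, with an interquartile range of 2 to 16. The 7 of the 14 genes off in set 2 with a window held a median of 15. Among all shifted protein-coding genes outside the segments, the 220 lower in set 1 with a window held a median of 16, with an interquartile range of 6 to 26. The 148 higher in set 1 with a window held a median of 18. Over all measured protein-coding genes the median was 21, and over genes outside the segments at 1 to 30 CPM that were not shifted it was 20, with an interquartile range of 12 to 27. The limit, the windows and this comparison were chosen after the values were seen, and they are a description of few genes.

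The 200 bases before the start are shown, 5′ to 3′ on the strand of the gene, for KDM5B, which was nearly off in set 2, and for 3 genes below 1 CPM in every sample of set 1, with CpG dinucleotides in capitals. They come from chr1:202808422-202808621 on the minus strand for KDM5B, and on the plus strand from chr14:88004935-88005134 for GPR65, chr7:111090927-111091126 for LRRN3 and chr5:141121618-141121817 for PCDHB4 (GRCh38.p14). They were picked after their CpG counts had been seen, to show both extremes.
KDM5B: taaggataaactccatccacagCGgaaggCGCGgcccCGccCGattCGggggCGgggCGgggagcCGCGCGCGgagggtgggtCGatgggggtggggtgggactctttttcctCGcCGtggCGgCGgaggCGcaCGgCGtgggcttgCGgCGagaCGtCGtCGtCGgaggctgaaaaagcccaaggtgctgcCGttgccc
GPR65: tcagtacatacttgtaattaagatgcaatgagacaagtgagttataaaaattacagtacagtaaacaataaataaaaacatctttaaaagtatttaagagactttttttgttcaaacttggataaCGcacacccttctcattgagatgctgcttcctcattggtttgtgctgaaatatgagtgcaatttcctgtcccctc
LRRN3: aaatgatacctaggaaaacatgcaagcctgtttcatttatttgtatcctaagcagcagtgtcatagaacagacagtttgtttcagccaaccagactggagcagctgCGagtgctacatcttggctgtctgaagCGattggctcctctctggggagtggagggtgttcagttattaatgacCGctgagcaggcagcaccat
PCDHB4: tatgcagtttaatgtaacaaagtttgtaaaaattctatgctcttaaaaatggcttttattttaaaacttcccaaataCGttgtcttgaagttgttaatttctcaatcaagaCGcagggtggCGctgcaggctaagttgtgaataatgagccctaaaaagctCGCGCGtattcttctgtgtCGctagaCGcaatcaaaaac

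The KDM5B window held 27 CpG dinucleotides, the PCDHB4 window 8, the LRRN3 window 3 and the GPR65 window 1. A high CpG count was not a mark of 1 direction alone: TNFRSF11A, which encodes the receptor RANK, held 26 in the same window and was 9.88-fold lower in set 1, at 5.84 to 12.9 CPM against 42.5 to 119.6 CPM. The longest stretch common to the windows of all 7 measured PCDHB genes was GGTGGCGCT, 9 letters found by comparing the windows. Searched on both strands, it stood in 117 of 27305 promoter windows (0.428%), among them those of 12 PCDHB genes and of no other protocadherin. These 12 include the 7 genes from which the stretch was taken, where its presence was fixed in advance. Whether it bears on the set difference was not tested. The windows of 2 further PCDHB genes show its place, with PCDHB2 from chr5:141094415-141094614 and PCDHB15 from chr5:141245195-141245394, both on the plus strand.
PCDHB2: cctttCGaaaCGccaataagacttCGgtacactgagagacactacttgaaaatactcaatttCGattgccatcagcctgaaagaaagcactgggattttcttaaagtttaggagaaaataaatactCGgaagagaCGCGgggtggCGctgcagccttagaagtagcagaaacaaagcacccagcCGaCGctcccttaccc
PCDHB15: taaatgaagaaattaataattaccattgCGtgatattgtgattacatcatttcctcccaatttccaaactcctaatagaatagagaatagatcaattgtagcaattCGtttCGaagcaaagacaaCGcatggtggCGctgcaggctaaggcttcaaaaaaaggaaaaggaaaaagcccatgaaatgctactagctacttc

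B-cell identity was largely shared by the sets. Of 22 pan-B-cell genes none was shifted, 1 was higher without overlap (8.69% of all genes were) and 3 were lower (8.44% of all genes were), and the median was -0.22 beside 0.00 over all genes. PAX5, the factor that maintains B-cell identity, differed by 0.00 (standard error 0.09). SPIB, an ETS family factor of B cells, was at 305, 355, 329 and 342 CPM in set 1 and at 468 to 588 CPM, median 519, in set 2. CD79B, the signalling chain of the B-cell receptor, was at 267 to 324 CPM against 323 to 439 CPM, without overlap within either genotype. Among 38 genes of B-cell receptor signalling 4 were higher and 7 lower without overlap, and the median was -0.17. FCGR2B, the inhibitory Fc receptor, differed by 0.95, but its sets were barely apart within wt. It was at 19.8 and 16.49 CPM in wt 1 and wt 4 and at 14.9 and 16.47 CPM in wt 2 and wt 6. In wt 3 and wt 5 it was at 2.34 and 4.01 CPM.

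Germinal centre genes had a median of 0.01 over 29 measured members, and 3 were higher and 3 lower without overlap (beside 8.69% and 8.44% of all genes). Of these, 2 were shifted higher and 1 lower. GCSAM was higher by 0.51 and MME, within the chromosome 3 segment, by 1.17, while IRF8 was lower by 0.39 and DENND3 by 2.24 on the log2 scale. For the activated B-cell and plasma-cell list, with 30 members measured, the median was 0.00 and no member was shifted. The 14 measured genes of memory and naive B cells had a median of -0.22. Of these 1 was higher and 4 were lower without overlap (beside 8.69% and 8.44% of all genes), and 2 were shifted lower (beside 2.51%), BHLHE41 among them. IRF4, a factor of plasma cell differentiation, differed by -0.33 with overlap and XBP1 by 0.08. PRDM1, another factor of that step, differed by -0.56 in wt and by 0.88 in R475C.

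Of 29 genes of the NF-kB pathway 9 were lower without overlap (beside 8.44% of all genes) and 1 was higher, with a median of -0.33. NFKBIE, an inhibitor of NF-kB, was at 40.9, 59.8, 45.4 and 34.2 CPM in set 1 and at 58.3 to 72.7 CPM, median 70.5, in set 2. CD40, the costimulatory receptor upstream of the pathway, was at 48.4 to 90.6 CPM against 81.4 to 114 CPM. BCL3 and TNFAIP3 were lower by 0.54 and 0.49, and the 1 member higher was NFKB2, in the chromosome 10 segment. None of the 29 reached 2-fold without overlap.

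Of 30 measured receptors for homing and adhesion, 6 were higher and 7 lower without overlap (beside 8.69% and 8.44% of all genes). Of these, 2 were shifted higher and 4 lower (beside 2.67% and 2.51% of all genes), and the median of the list was -0.35. ITGA4, the alpha chain of the integrin VLA-4, was at 4, 5.51, 1.19 and 1.93 CPM in set 1 and at 17.1 to 47.7 CPM, median 33.5, in set 2. SLAMF1, a self-binding receptor of lymphocytes, was at 55.4, 57.8, 40.0 and 43.3 CPM in set 1 and between 0.647 and 1.05 CPM in 4 samples of set 2. In wt 3 and wt 5, also of set 2, SLAMF1 was at 16.9 and 15.8 CPM, between the sets. CXCR3, a chemokine receptor, was at 1.5 to 4.95 CPM against 0 to 1.03 CPM, and CXCR5, which guides B cells into follicles, was lower by 0.67.

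The markers known for U-2932 subclones did not separate the sets in the same direction in both genotypes. MS4A1, which encodes CD20, was at 1679, 1509, 1432 and 1506 CPM in set 1 and at 1359.7 to 2170.4 CPM, median 1827, in set 2. CD38 was at 213, 207, 99.4 and 133 CPM in set 1 and at 134 to 203 CPM, median 177, in set 2, and its difference was 0.33 in wt and -0.70 in R475C. BCL6 was at 357, 462, 631 and 723 CPM against 320.2 to 643 CPM, and MYC at 17.9 to 20.9 CPM against 11.1 to 23.8 CPM. BCL2, looked at beside these markers, was at 1179, 1357, 832 and 915 CPM against 1232 to 1846 CPM, median 1508. Its difference was -0.46 (standard error 0.12). MS4A1, BCL6, MYC and BCL2 overlapped between the sets within at least 1 genotype. CD38 overlapped within neither, but was higher in set 1 within wt and lower within R475C. Within R475C, MS4A1 and BCL2 were also lower in set 1 without overlap. None of these genes was shifted. RNA levels do not measure the surface proteins by which those subclones were sorted.

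**Figure D2:**
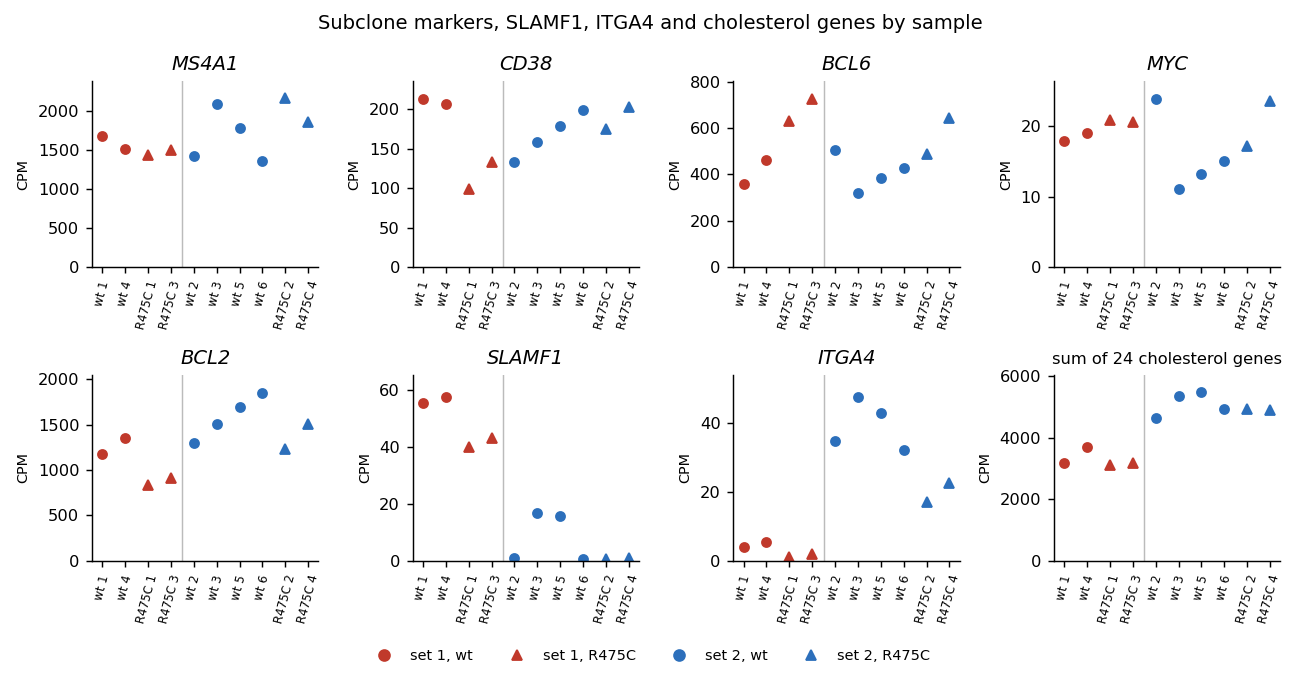
Level in CPM of MS4A1, CD38, BCL6 and MYC, known for U-2932 subclones, and of BCL2, SLAMF1 and ITGA4, by sample. The last panel gives the summed level of 24 cholesterol synthesis genes. Set 1 stands left of the line. With genotypes pooled, MS4A1, CD38, BCL6, MYC and BCL2 overlap between the sets, whereas SLAMF1, ITGA4 and the cholesterol sum do not.

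The leading immunoglobulin transcripts were the same in both sets. IGKC and IGHM led the constant genes and IGKV3-20 the variable segments. IGKV3-20 was at 125 to 223 CPM in set 1 and 153 to 256 CPM in set 2. The heavy variable segment with the highest mean, IGHV4-39, was far below IGHM and uneven. It was at 10.9, 1.6, 1.24 and 20.3 CPM in set 1 and at 0.988 to 7.89 CPM in set 2. Whether the sets share a heavy variable segment was not tested. IGHM was at 656, 1032, 729.8 and 647 CPM in set 1 and at 758 to 1185 CPM in set 2, without overlap within either genotype, and IGKC differed by -0.27. IGHG1 was low everywhere but higher in set 1, at 1.06 to 3.27 CPM against 0 to 0.888 CPM. Near-identical immunoglobulin genes can share or lose reads, and their values are uncertain.

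The genes of cholesterol synthesis, which are switched on together by the factor SREBF2 when sterols are scarce, were mostly lower in set 1. Of 24 measured members 23 were lower and 19 of them without overlap (79.2%, beside 8.44% of all genes). The median was -0.58, and none reached 2-fold. SQLE, squalene epoxidase, was at 182, 200.2, 179 and 183 CPM in set 1 and at 308 to 397 CPM, median 348, in set 2. MSMO1, HMGCS1 and MVD were lower by 0.90, 0.83 and 0.81 and SREBF2 itself by 0.51 on the log2 scale. PMVK was the 1 member not lower, at 0.11. The summed level was 3123 to 3710.2 CPM in set 1 and 4630.2 to 5473 CPM in set 2. This list had been seen to differ between these samples before, so its direction is not independent evidence.

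Genes of fatty acid synthesis and desaturation were named after their values were seen. FADS2, the delta-6 desaturase, was at 82.3, 237, 13.2 and 27.2 CPM in set 1 and at 167 to 539.8 CPM, median 455, in set 2, and its neighbour FADS1, the delta-5 desaturase, was 2.01-fold lower in set 1. FASN, fatty acid synthase, overlapped, with a difference of -0.36, and SCD, in the chromosome 10 segment, was higher by 0.33. Of 46 DNA replication genes 4 were higher and 2 lower without overlap, and of 78 ribosomal protein genes 7 were higher and none lower, beside 8.69% higher and 8.44% lower among all genes. Of 36 genes of mitosis 4 were higher and 1 lower without overlap, beside the same shares of all genes. With overlap disregarded, 28 were higher and 8 lower, and the median was 0.12, or 0.11 for members outside the segments. The 2 shifted ones (beside 2.67% of all genes shifted higher), CDK1 and KIF11, both lie in the chromosome 10 segment.

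Not every difference between the sets held in both genotypes. Across genes, the set difference in wt and that in R475C had a Pearson correlation of 0.476 over 18358 genes, which are not independent replicates, and the segments contribute to it. By edgeR's quasi-likelihood test of the interaction (two-sided, Benjamini-Hochberg adjusted p under 0.05), the set difference depended on genotype for 68 genes (0.37%), 31 with a more positive difference in R475C and 37 with a more negative one. DESeq2 called 173. Samples had been grouped because they looked alike, and this selects for few such genes. Leaving out R475C 3 left 32 calls and leaving out R475C 1 left 39. Of the 68, 27 differed by 2-fold only in R475C, 13 only in wt, 12 in both in the same direction, 15 in opposite directions and 1 by less in either.

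TFEC, a transcription factor gene of the MITF family, went in opposite directions. It was at 12.97 and 12.38 CPM in the wt samples of set 1 and at 33.6 to 35.0 CPM in those of set 2, but at 19.7 and 22.6 CPM in the R475C samples of set 1 and at 8.73 and 9.77 CPM in those of set 2 (adjusted p = 6.58e-05). GLUL, glutamine synthetase, was at 0.672 and 1.12 CPM only in R475C 1 and R475C 3 and at 28.6 to 79.1 CPM elsewhere (adjusted p = 1.02e-05). DOCK10, a guanine exchange factor of lymphocytes, was at 0.827 and 0.694 CPM in these samples and at 14.1 to 30.8 CPM in the others (adjusted p = 1.84e-06). EPB41L2, a membrane skeleton gene, was low only in R475C 2 and R475C 4, at 1.67 and 0.439 CPM, beside 73.5 to 90.6 CPM in the other 8 samples (adjusted p = 1.84e-06). PIEZO2 and the complement receptor gene CR2 were likewise low in R475C 1 and R475C 3, at 2.43 and 5.25 CPM for PIEZO2 and at 1.03 and 0.784 CPM for CR2. In each of these genes other than TFEC the low level was shared by both samples of a genotype within a set.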

How the data were processed

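Poly(A)-selected RNA of 10 samples of edited, single-cell-cloned cells of the line labelled U2392 was sequenced on an Illumina HiSeq instrument, per the labels' protocols. The deposited values are raw counts, 1 whole number per gene and sample without normalization, in a single table. The submitters' processing notes name cutadapt 1.10, STAR 2.6.0c and featureCounts. No source used here gives the genome build or the strand setting. Positions came from GENCODE release 29 (GRCh38), whose IDs matched all 58721 of the table.

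Counts were fitted with edgeR 4.0.16 in R 4.3.3 (TMM, filterByExpr by genotype and set at its default minimum count, 10, and minimum total, 15, and glmQLFit) with genotype and set as terms. CPM values use TMM library sizes. A log2 difference is set 1 minus set 2, and its standard error is its size divided by the square root of the F value. The interaction was tested with glmQLFTest. Segments are runs of at least 15 protein-coding genes of at least 5 CPM whose running median over 31 genes was at least 0.25 in size. Total counts of 8928539 to 53779005 set the precision, and a gene below about 1 CPM rests on few reads in the shallowest library. Duplicate libraries were looked for within genotypes: over 21 pairs the chi-square per gene was 10.6 to 88.5, so all 10 were kept. The fit was checked on simulated counts.

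The 2 sets, their members and the gene lists were chosen with earlier results of these data known. Named genes were DDX3X, the subclone markers MS4A1, CD38, BCL6 and MYC, and BCL2. The 12 largest differences in each direction among shifted protein-coding genes outside the segments were also named (mean of at least 1 CPM, no immunoglobulin segments). So were the 6 most expressed shifted genes in each direction, 5 per segment, up to 5 shifted members per list and the leading immunoglobulin genes. Some genes are not reported here. Others were named after their values were seen, among them the members of the block of 4 genes, the genes with an interaction and most members of the B-cell and lipid lists. Also chosen after seeing the data were the search for runs of 5 genes, the limit of 1 CPM, the promoter comparison and the printed promoters, and the use of shorter windows, down to 16 genes, at chromosome ends. The alternatives covered scaling (RLE, upper quartile, library size), other filters, no genotype term, the replicate block, limma-voom 3.58.1, DESeq2 1.42.0, other fold limits, other windows and segment thresholds, and leaving out samples singly or in pairs.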

Additional observations from a re-analysis of the deposited data

Results flagged for a closer look

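The set difference depended on genotype for 12 of the 154 genes named, by edgeR's quasi-likelihood test of the interaction with Benjamini-Hochberg adjustment over all genes. DOCK10 and EPB41L2 had an adjusted p of 1.84e-06 each, GLUL and ATF7IP2 1.02e-05 each, PIEZO2 4.76e-05, TFEC 6.58e-05 and CR2 2.55e-04. CD44, a hyaluronan receptor, had an adjusted p of 0.0025: it was at 20.2 and 23.3 CPM in the R475C samples of set 1 and at 57.7 to 80.4 CPM in the other 8 samples. SLFN11, a gene tied to the response to DNA damage, had an adjusted p of 0.00501 and was lower in set 1 in both genotypes, by -1.10 in wt and -3.15 in R475C on the log2 scale. TNFRSF13B, which encodes the receptor TACI, had an adjusted p of 0.0225 and was at 19.5 and 22.8 CPM in the R475C samples of set 1 against 57.5 to 95.5 CPM elsewhere. BMP7 had an adjusted p of 0.0238 and HK1, a hexokinase gene in the chromosome 10 segment, 0.0265, each with a larger difference in R475C than in wt. Most of these genes were picked for their interaction, so their number says nothing about how common it is.

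In 8 of the 154 genes, 1 of the 4 wt samples of set 2 lay far from the other 3, taken as a gap to the nearest sample above 0.829 of the whole range. Chance alone flags about 1 in 20 such groups. The ratio was 1.0 for H3C8, a histone gene with a count in wt 5 alone among these 4, 0.983 for CD44 and 0.856 for TNFRSF13B. It was 0.98 for CD48, with wt 2 low at 122 CPM beside 154 to 155 CPM, 0.935 for ADGRE5, 0.911 for IGLC1, 0.887 for CYRIA and 0.883 for CDV3.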

How the results depend on the processing

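The counts of shifted genes followed the fold limit. At 1.5-fold they were 1694, with 929 higher, 765 lower and 1194 outside the segments, and at 4-fold 346, with 132 higher, 214 lower and 313 outside. A filter of at least 1 CPM in at least 4 samples left 297 lower and 465 outside, since fewer genes were tested. Leaving out single samples gave 471 to 741 lower and 748 to 1078 outside. The interaction calls were 32 to 79 without single samples and 173 with DESeq2; the cause was not tested. The chromosome 21 median was 0.574 with library size only, 0.583 without the genotype term, 0.581 with upper-quartile scaling, 0.634 without wt 3 and 5 and 0.589 to 0.614 without single samples, always higher in set 1. With full windows only, the chromosome 10 segment had 263 genes and that of chromosome 21 had 65. A segment threshold of 0.2 added a run of 35 genes on chromosome 1, with a median of 0.23. The median of activated and plasma-cell genes was -0.18 without the genotype term and -0.0998 to 0.0381 without single samples, and that of pan-B-cell genes -0.223 to -0.0933. For wt and R475C samples of the same replicate number, deviations from the genotype mean had correlations of 0.28, 0.14, -0.23 and -0.18 for numbers 1 to 4. These deviations include the set difference. Samples of number 1 share a set, as do those of number 2, whereas those of numbers 3 and 4 are in different sets. Whether replicate numbers pair the samples apart from set was not tested. With the replicate number as a block, 983 genes were shifted, 842 of the 950 among them, and the medians were 0.0879 for activated and plasma-cell genes and -0.44 for memory and naive genes. Of 28 settings none turned the direction of a named gene that was shifted, while 12 named genes, FADS1, EPS15 and MKI67 among them, lost their call under at least 1. Lists whose medians are not given above moved more in places, interferon-stimulated genes between -0.01 and 0.58.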

Other observations

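Further lists were counted in the same way, beside 8.69% of all genes higher and 8.44% lower without overlap. Of 30 MYC targets, 2 were higher and 2 lower without overlap, and of 24 p53 targets likewise 2 and 2. Of 29 interferon-stimulated genes 2 were higher and 1 lower, of 26 ATF4 targets 1 and 1, and of 30 endoplasmic reticulum stress genes 1 and 3. Among 14 genes of MHC class II 1 was higher and 1 lower, and of 19 of MHC class I none was higher and 3 were lower. Of 26 canonical histone genes 5 were higher and none lower, and 3 of the 5 were shifted (beside 2.67% of all genes). Among these was the linker histone gene H1-2, at 130.4, 96.1, 55.0 and 42.2 CPM in wt 1, wt 4, R475C 1 and R475C 3 and at 17.9 to 57.2 CPM in set 2. Poly(A) selection keeps few transcripts of canonical histones, and their copies can share reads.

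FGR, a SRC family kinase of myeloid and B cells, was at 45.7, 64.9, 49.6 and 54.2 CPM in set 1 and at 5.07 to 18.2 CPM, median 9.53, in set 2. GNB4, a G protein beta subunit on chromosome 3 beyond the segment, was at 415 to 629.9 CPM against 136 to 292 CPM. In set 2 it was at 136 and 139 CPM in wt 3 and wt 5 and at 269 to 292 CPM in wt 2 and wt 6, so the pairs within set 2 differed as well.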
